A study of Sus scrofa domesticus with 6 samples.

Results

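Integrins and laminins form the main adhesive contact between cells and the basement membrane, and their transcripts were followed here in the small intestine of irradiated Göttingen minipigs. The rows were chosen by gene symbol, taking symbols that start with ITGA or ITGB (followed by a number or by D, E, L, M, V or X) or with LAMA, LAMB or LAMC followed by a number, and keeping those with at least 50 reads summed over the 6 libraries. Of 30352 named genes, 40 are described: 26 integrin subunits, 11 laminin chains, and 3 genes that share the prefix without being subunits (ITGB1BP1, ITGB1BP2 and ITGBL1). Every row that matched by symbol had enough reads, and all 40 passed the filter on low counts.

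The study compared 3 groups of 2 animals each, all wild type and 6 months old by their labels. Control animals were not irradiated. IR animals were exposed to 15 Gy of cobalt gamma rays over the abdomen. IR_Pra animals had the same exposure and took 40 mg of pravastatin by mouth per day for 2 weeks, and tissue was collected on day 14. Pravastatin is a statin, an inhibitor of HMG-CoA reductase. The labels do not say which stretch of the small intestine, or how much of its muscle wall, went into a sample, and RNA came from bulk tissue.

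An integrin is a pair of 1 alpha and 1 beta subunit that spans the cell membrane, binds matrix or a receptor on another cell outside, and couples to the actin or keratin cytoskeleton inside. A laminin is a trimer of an alpha, a beta and a gamma chain, and laminins polymerise into the sheet on which epithelium, muscle and endothelium rest. In the intestine, the trimer laminin-332, which holds LAMA3 and LAMB3, anchors epithelial cells through the integrin of ITGA6 and ITGB4, while trimers built on LAMA2, LAMA4 and LAMA5 with LAMB1 or LAMB2 and LAMC1 are found around crypts, muscle and vessels.

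Libraries held between 48587645 and 73968471 reads assigned to named genes, and the 40 genes took between 0.245% and 0.599% of them. Levels are given as CPM, read counts scaled to library size and between libraries, with animal 1 before animal 2. The IR libraries stood apart from each other. The summed level of 17 epithelial marker genes was 9584 to 10705 CPM in controls and 9004 to 10845 CPM in IR_Pra, but 9806 CPM in IR animal 1 and 1921 CPM in IR animal 2. In IR animal 1, long transcripts read low: the median log2 difference from the control mean went from 0.62 in the shortest 10% of genes to -0.71 in the longest 10%. The 40 genes have a median transcript length of 5562 nucleotides against 3104 for all genes tested. The summed level of 12 smooth muscle markers was 6722 and 13691 CPM in controls, 34627 and 74208 CPM in IR, and 22870 and 15318 CPM in IR_Pra. All 17 epithelial and all 12 smooth muscle markers had reads in every library.

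In IR against control tissue, 6 of the 40 genes passed an adjusted p under 0.05 (edgeR quasi-likelihood test, adjusted over all 18197 genes tested). This is 15% of them, beside 6.06% of all genes tested. ITGA7, ITGA5, ITGA8 and LAMA5 were higher (4 genes, where 3.39% of all genes were called higher). LAMA3 and ITGA2 were lower (2 genes, where 2.68% of all genes were called lower). The median log2 fold change was 0.99 over the laminin chains, -0.07 over the integrin subunits and 0.03 over all genes tested. At an unadjusted p under 0.05 the count was 17 of 40, beside 30.2% of all genes. In 26 of 40 genes (65%) the IR and control libraries did not overlap, beside 59.8% of all genes. Of these, 16 were higher (beside 29.8% of all genes) and 10 lower (beside 30%). The log2 fold change was above 0 for 24 of 40 genes, beside 51.3% of all genes.

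**Figure D1:**
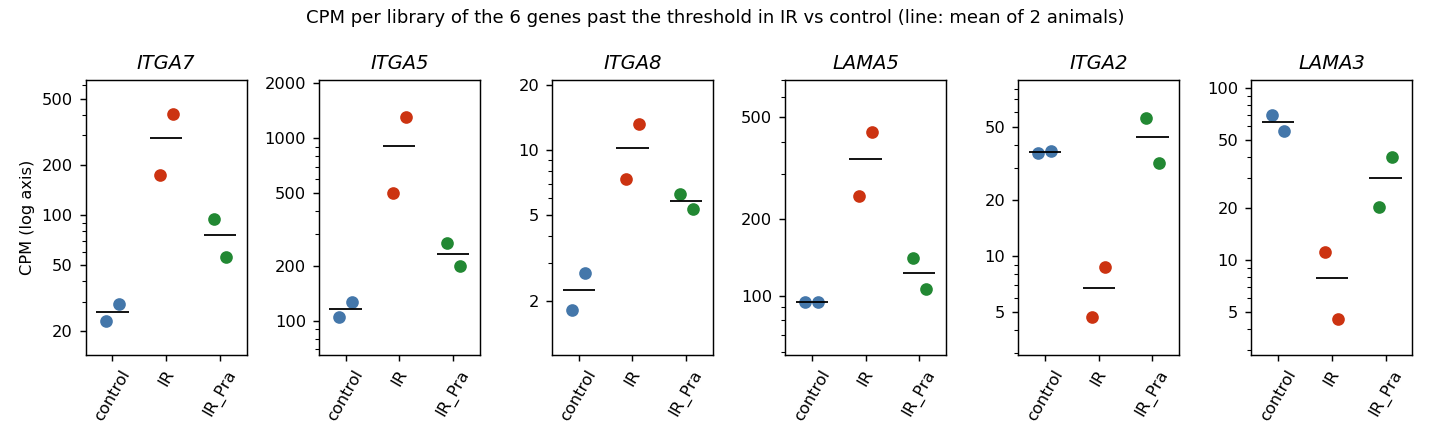
CPM on a log axis in each of the 6 libraries for the 6 genes past the threshold in IR against control, with a line at the mean of the 2 animals of a group. For each gene both IR libraries lie outside the control range, and for every gene but ITGA2 both IR_Pra libraries lie between the control and the IR values.

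Markers of other cells in the same comparison were as follows, beside 3.39% of all genes called higher and 2.68% called lower (median 0.03). Of 17 epithelial markers 1 was called lower (median log2 fold change -0.65), of 12 endothelial markers 1 higher (median 0.73), of 12 fibroblast markers 0 (median 1.30) and of 6 skeletal muscle markers 1 higher (median 1.76). Of 8 neutrophil markers 3 were called higher (median 3.13), of 10 B cell markers 6 lower (median -4.10), of 9 glia markers 1 higher and 1 lower (median 1.77), and of 5 platelet markers 0 (median 0.25). Their part in the values below was not tested, beyond the levels relative to markers that are given with the genes.

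All 6 genes lost the call when either control library or either IR_Pra library was left out, with adjusted p between 0.101 and 0.249, and no gene of all those tested passed in these fits. The 6 genes kept their direction without either IR library. A single IR animal is then left, so those fits cannot show how far IR animals differ. With no IR_Pra library in the fit at all, the edgeR adjusted p of the 6 genes was 0.0995 to 0.107.

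LAMA3, the alpha chain of laminin-332 (Entrez 100511642, chromosome 6, 108548818 to 108805700 in Sscrofa11.1), was at 70.0 and 56.5 CPM in controls, 11.2 and 4.53 CPM in IR, and 20.3 and 39.7 CPM in IR_Pra. The IR libraries were the lowest and did not overlap those of either other group. LAMA3 fell by 3.01 ± 0.55 (log2, SE, n = 2 and 2) in IR against control, with an edgeR adjusted p of 0.0432. Without IR animal 1 the fall was larger, at -3.81. With the trend of counts on transcript length removed, LAMA3 was at -2.54 (adjusted p = 0.0803) and did not pass.

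LAMB3, the beta chain of laminin-332 (chromosome 9, 133298009 to 133351162), did not pass the test. It was at 114 and 141 CPM in controls, 143 and 19.6 CPM in IR, and 81.8 and 122 CPM in IR_Pra. IR animal 1 was as high as the higher control and IR animal 2 was the lowest library, so the log2 fold change of -0.65 ± 0.82 (SE) had an adjusted p of 0.626, and without IR animal 2 its sign turned to 0.16. The ratio of LAMB3 to LAMA3 in FPKM, a level per transcript length, was 2.84 and 4.30 in controls, 33.4 and 11.3 in IR, and 7.34 and 5.45 in IR_Pra. The ratio was higher in both IR libraries than in the other 4. LAMA3 fell further in FPKM than in CPM, from a control mean of 8.76 to 0.658 FPKM in IR. In CPM its mean went from 63.3 to 7.87. The rise of the ratio in IR is therefore larger in FPKM than in read counts.

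Since the epithelial markers moved with these genes in IR animal 2, the chains were also read per 1000 CPM of the 17 epithelial markers. In bulk tissue, fewer cells of a type and less RNA per cell cannot be told apart. LAMA3 was at 7.31 and 5.28 per 1000 epithelial CPM in controls, 1.14 and 2.36 in IR, and 1.87 and 4.41 in IR_Pra. On this scale LAMA3 was still lower in both IR libraries than in either control. Long transcripts read low in IR animal 1, and the LAMA3 transcript has 7537 nucleotides. LAMB3 was at 11.9 and 13.2 in controls, 14.6 and 10.2 in IR, and 7.54 and 13.5 in IR_Pra, so its groups overlapped. No test was made of these ratios.

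**Figure D2:**
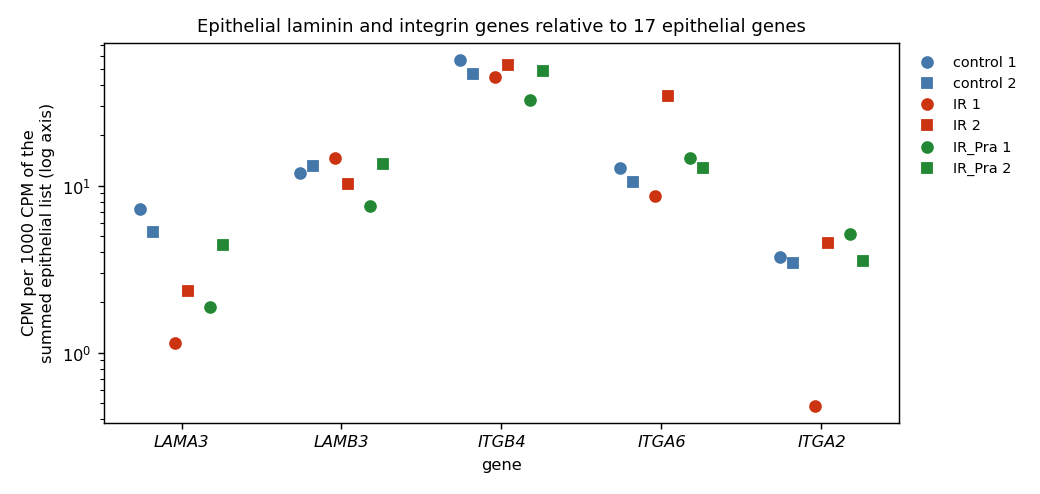
CPM of 5 epithelial laminin and integrin genes per 1000 CPM of the summed 17 epithelial markers, on a log axis, with a point per library. LAMA3 is lower in both IR libraries than in both controls, LAMB3 and ITGB4 overlap between the groups, and ITGA2 is low in IR animal 1 (0.483) but not in IR animal 2 (4.54).

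LAMA5, the alpha chain of laminin-511 and laminin-521 (Entrez 110257482, chromosome 17, 61698370 to 61747795), was at 94.9 and 94.1 CPM in controls, 246 and 439 CPM in IR, and 140.3 and 106 CPM in IR_Pra. The IR libraries were the highest, and the IR_Pra libraries lay just above the controls. LAMA5 rose by 1.86 ± 0.35 (log2, SE, n = 2 and 2) in IR, with an adjusted p of 0.0456. Per 1000 CPM of the smooth muscle markers, which were higher in the same libraries, LAMA5 was at 14.1 and 6.88 in controls and 7.10 and 5.92 in IR. The part of the muscle content in the LAMA5 result was not tested.

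LAMB2, the beta chain of laminin-521 and of synaptic and vascular laminins, had the highest log2 fold change of the laminin chains but missed the threshold. It was at 102 and 166 CPM in controls, 382 and 878 CPM in IR, and 198 and 204 CPM in IR_Pra, with no overlap between the 3 groups. Its log2 fold change in IR was 2.23 ± 0.48 (SE), with an adjusted p of 0.0534. With the length trend removed it passed, at 2.43 with an adjusted p of 0.0436. Per 1000 CPM of the smooth muscle markers, LAMB2 was at 15.16 and 12.11 in controls and 11.02 and 11.84 in IR. On this scale both IR libraries were below both controls. The part of the muscle content in the LAMB2 values was not tested.

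LAMA2, the alpha chain of muscle laminin-211, was at 19.5 and 22.7 CPM in controls, 40.9 and 44.4 CPM in IR, and 40.4 and 28.8 CPM in IR_Pra. Its log2 fold change of 1.02 ± 0.26 (SE) had an adjusted p of 0.0691, and it passed with the length trend removed (1.42, adjusted p = 0.0474). LAMA4, the alpha chain of endothelial laminin-411, was at 57.6 and 87.1 CPM in controls, 120 and 223 CPM in IR, and 130.4 and 75.3 CPM in IR_Pra. In CPM, the IR libraries of LAMA2 and LAMA4 lay above the controls, while the IR_Pra libraries of LAMA4 overlapped them. Per 1000 CPM of the smooth muscle markers, LAMA2 was at 2.903 and 1.657 in controls and 1.182 and 0.598 in IR. LAMA4 was at 8.569 and 6.364 in controls and 3.459 and 3.003 in IR. On this scale both IR libraries were below both controls for each gene. The part of the muscle content in these values was not tested.

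LAMB1, the beta chain of many of these trimers, was at 109 and 133 CPM in controls, 186 and 269 CPM in IR, and 168 and 98.9 CPM in IR_Pra. LAMC1, the gamma chain of many laminins, was at 118 and 138 CPM in controls, 177 and 289 CPM in IR, and 217 and 141 CPM in IR_Pra. Neither passed the test: log2 fold changes in IR were 0.91 ± 0.36 for LAMB1 (adjusted p = 0.153), 0.87 ± 0.35 for LAMC1 (adjusted p = 0.166) and 1.24 ± 0.44 for LAMA4 (adjusted p = 0.129). The remaining chains, LAMA1, LAMB4 and LAMC3, were low, with 109, 229 and 400 reads over all 6 libraries and at most 2.02 CPM in any library, and none passed.

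Levels were compared between chains as shares of the FPKM of all chains of a type. LAMA3 made up 33.9% and 25.0% of alpha chain FPKM in controls, 2.33% and 0.543% in IR, and 6.93% and 18.7% in IR_Pra. In IR, LAMA3 fell further in FPKM than in CPM, so part of this fall in share is not seen in read counts. LAMA5 made up 28.1% and 25.1% in controls, 46.8% and 48.3% in IR, and 30.6% and 31.1% in IR_Pra. The leading alpha chain was LAMA3 in control animal 1, LAMA4 in control animal 2, and LAMA5 in both IR animals.

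Of the beta chains, LAMB2 made up 28.8% and 34.8% in controls, 51.6% and 77.7% in IR, and 43.6% and 44.5% in IR_Pra. For LAMA3, LAMA5 and LAMB2 the IR_Pra shares lay between those of the other groups in both animals. These shares were not tested, nor was the part of epithelial and muscle content in them. The epithelial markers of IR animal 1 summed to 9806 CPM, within the control range of 9584 to 10705 CPM. Its LAMA3 share was 2.33%, below both controls. The sum does not show each marker: 8 of the 17 were below both controls in both IR libraries and 1 was above. IR animal 1 is also the library in which long transcripts read low, and the LAMA3 transcript has 7537 nucleotides. In IR animal 2 these markers summed to 1921 CPM and the LAMA3 share was 0.543%.

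**Figure D3:**
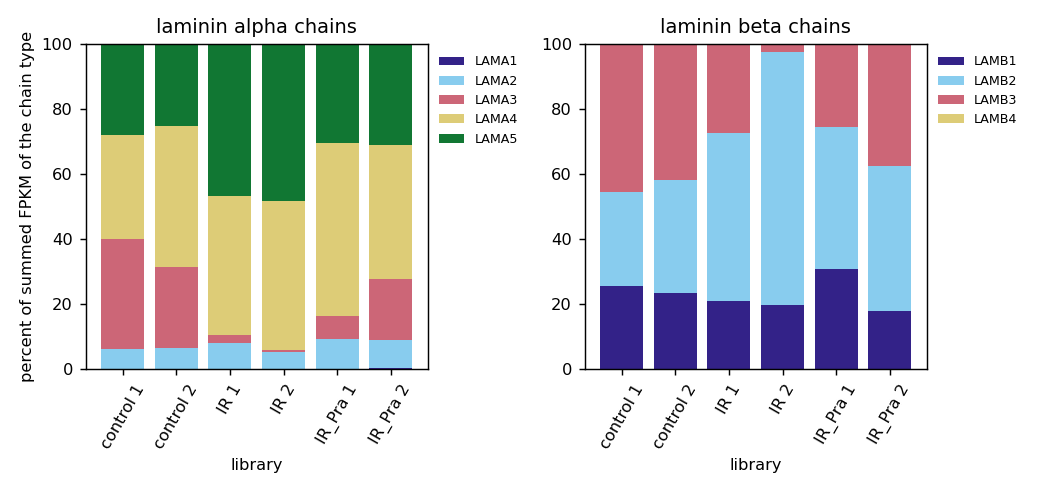
Percent of the summed FPKM of the laminin alpha and beta chains taken by each chain in each library. In the IR libraries the share of LAMA3 is small and those of LAMA5 and LAMB2 are large, with LAMB2 at 51.6% and 77.7% of beta chain FPKM.

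ITGA1 and ITGA2, neighbours with a gap of 26322 bases on chromosome 16, had an ITGA2 to ITGA1 ratio in FPKM of 1.02 and 0.915 in controls, 0.110 and 0.0696 in IR, and 0.708 and 0.653 in IR_Pra. Each IR library had a lower ratio than every other library. The ratio was not tested, nor was the part of epithelial and muscle content in it. ITGA1 overlaps PELO (22790 and 10097 reads over the 6 libraries), and how strand was counted is not given.

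Among the laminin-binding integrins, ITGA7, the alpha subunit of the main laminin receptor of smooth, skeletal and cardiac muscle (Entrez 110260578, chromosome 5, 21126565 to 21150875), had the highest fold change of the 40 genes. It was at 23.2 and 29.3 CPM in controls, 174 and 405 CPM in IR, and 94.5 and 55.9 CPM in IR_Pra. The 3 groups did not overlap, with IR_Pra between the others. ITGA7 rose by 3.46 ± 0.52 (log2, SE, n = 2 and 2) in IR, with an adjusted p of 0.0370, and by 2.72 without IR animal 2. Per 1000 CPM of smooth muscle markers, ITGA7 was at 3.45 and 2.14 in controls, 5.01 and 5.46 in IR, and 4.13 and 3.65 in IR_Pra. It was thus above both controls in both IR animals on this scale too, and the part of the muscle content was not tested.

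The epithelial laminin receptors did not pass the test. ITGA6, which pairs with ITGB4 in hemidesmosomes, was at 123 and 113 CPM in controls, 85.4 and 66.1 CPM in IR, and 160 and 116 CPM in IR_Pra. ITGB4 was at 543 and 500.5 CPM in controls, 440.0 and 101 CPM in IR, and 356 and 437 CPM in IR_Pra. Both IR libraries were below both controls for each gene, but for ITGB4 the gap was wide only in IR animal 2, where the epithelial markers were low too.

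Log2 fold changes in IR were -0.64 ± 0.27 for ITGA6 (adjusted p = 0.176), -0.95 ± 0.65 for ITGB4 (adjusted p = 0.367) and -0.65 ± 0.26 for ITGA3 (adjusted p = 0.163), the alpha subunit of the other main epithelial laminin receptor. Per 1000 CPM of epithelial markers, ITGB4 was at 56.7 and 46.8 in controls, 44.9 and 52.7 in IR, and 32.8 and 48.5 in IR_Pra. On this scale ITGB4 overlapped between control and IR, unlike LAMA3, a chain of its ligand. ITGA6 was at 12.8 and 10.6 per 1000 epithelial CPM in controls, 8.71 and 34.4 in IR, and 14.7 and 12.9 in IR_Pra. ITGA3 was at 14.1 and 12.1 in controls, 10.3 and 35.8 in IR, and 11.9 and 15.0 in IR_Pra. For both alpha subunits IR animal 1 was the lowest library and IR animal 2 the highest on this scale, although both IR libraries were below both controls in CPM.

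Of the 4 collagen-binding alpha subunits, ITGA2 passed the test. ITGA2 (Entrez 397483, chromosome 16, 32336240 to 32440311), the collagen receptor subunit of epithelial cells and platelets, was at 35.9 and 36.9 CPM in controls, 4.74 and 8.72 CPM in IR, and 55.9 and 31.9 CPM in IR_Pra. The IR libraries were far below the rest, while the IR_Pra libraries lay on either side of the controls. ITGA2 fell by 2.44 ± 0.42 (log2, SE, n = 2 and 2) in IR, with an adjusted p of 0.0410. ITGA2 overlaps MOCS2 at its end, and how strand was counted is not given. Per 1000 CPM of epithelial markers it was at 3.75 and 3.45 in controls, 0.483 and 4.54 in IR, and 5.15 and 3.54 in IR_Pra. On this scale ITGA2 was low in IR animal 1 and not in IR animal 2. IR animal 1 is the library in which long transcripts read low, and the ITGA2 transcript has 10981 nucleotides. With the length trend removed, ITGA2 was at -2.12 in IR against control (edgeR adjusted p = 0.0400). The summed level of 5 platelet markers was 0.869 to 1.57 CPM in every library.

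ITGA1, the collagen receptor subunit of smooth muscle and other stromal cells, was at 35.5 and 40.9 CPM in controls and 41.8 and 122 CPM in IR (log2 1.10 ± 0.53, adjusted p = 0.226). ITGA10 and ITGA11, found mainly in cartilage and fibroblasts, were at 5.67 to 17.3 CPM in all libraries and did not pass.

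Among the subunits that recognise the RGD motif of fibronectin and related ligands, ITGA5 and ITGA8 rose. ITGA5, the alpha subunit of the fibronectin receptor (Entrez 100155091, chromosome 5, 19587361 to 19610580), was at 105 and 128 CPM in controls, 504 and 1304 CPM in IR, and 267 and 199.7 CPM in IR_Pra. IR was highest, control lowest and IR_Pra between, without overlap. ITGA5 rose by 2.96 ± 0.52 (log2, SE, n = 2 and 2), with an adjusted p of 0.0422, and by 2.11 without IR animal 2. Of all integrin alpha subunit FPKM, ITGA5 took 15.5% and 18.8% in controls, 46.3% and 58.0% in IR, and 28.1% and 25.2% in IR_Pra.

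ITGA8, a subunit of smooth muscle and mesenchymal cells that binds nephronectin (Entrez 100512676, chromosome 10, 46132887 to 46303659), was expressed at a lower level: 1.82 and 2.70 CPM in controls, 7.32 and 13.2 CPM in IR, and 6.28 and 5.35 CPM in IR_Pra. The 3 groups again did not overlap. ITGA8 rose by 2.18 ± 0.43 (log2, SE, n = 2 and 2), with an adjusted p of 0.0470. Relative to 1000 CPM of smooth muscle markers, ITGA5 was at 15.6 and 9.32 in controls and 14.5 and 17.6 in IR, and ITGA8 at 0.270 and 0.197 in controls and 0.211 and 0.178 in IR. On this scale neither gene stood clear of the controls, and the part of the muscle content in the rises was not tested. ITGAV and the platelet subunit ITGA2B did not pass, with levels of 11.4 to 22.2 CPM and 6.30 to 18.9 CPM over the 6 libraries.

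**Figure D4:**
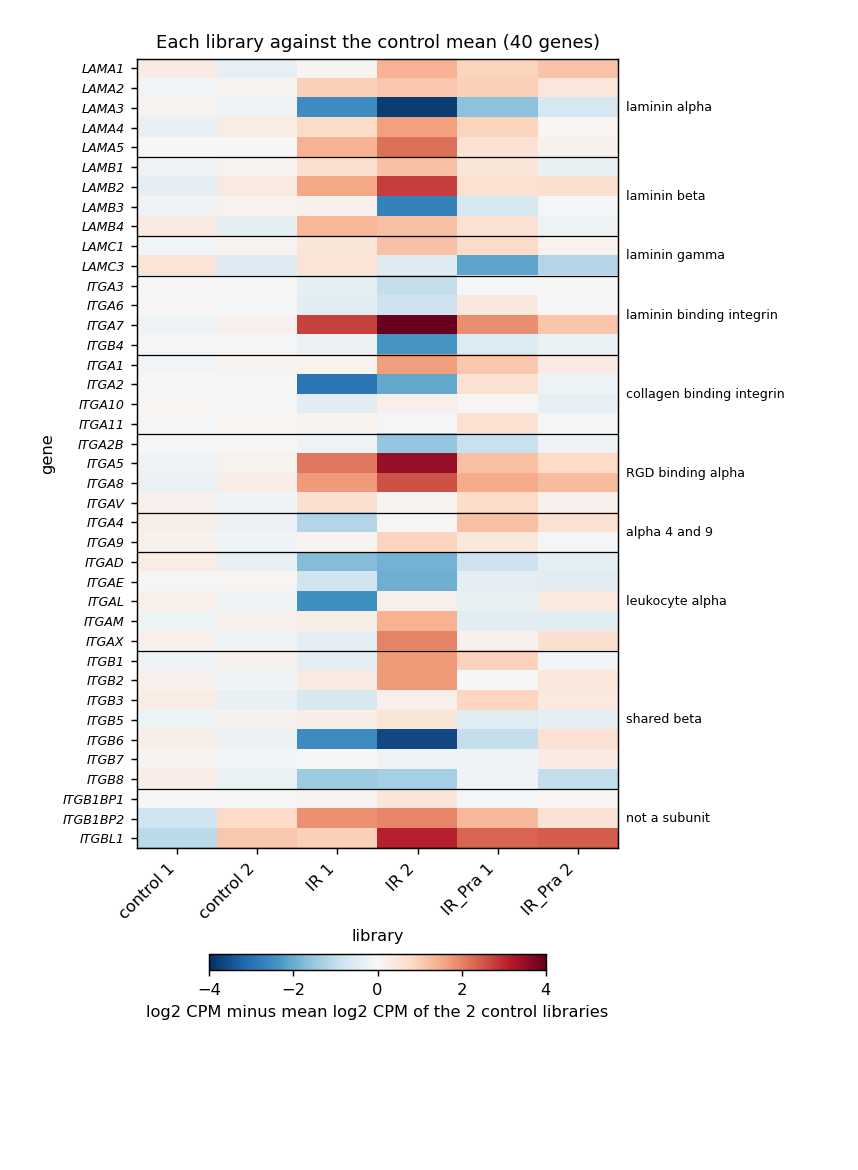
Log2 CPM of each of the 40 genes in each library minus the mean log2 CPM of the 2 controls, by role. Red is above and blue below the control mean, on a scale from -4 to 4. ITGA7, ITGA5, ITGA8, LAMA5 and LAMB2 are red, and LAMA3, ITGA2 and ITGB6 blue, in both IR columns, while LAMB3 and ITGB4 are blue mainly in IR 2.

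None of the 7 shared beta subunits passed the test. ITGB1, the partner of most matrix-binding alpha subunits including ITGA7, ITGA5, ITGA8 and ITGA2, was at 193 and 247 CPM in controls, 169 and 708 CPM in IR, and 413 and 204 CPM in IR_Pra. It was below both controls in IR animal 1 and far above them in IR animal 2. The log2 fold change was 1.0 ± 0.70 (adjusted p = 0.378) and turned to -0.38 without IR animal 2.

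ITGB6, an epithelial subunit that with ITGAV activates latent TGF-beta, had the lowest fold change of the 40 genes but missed the threshold. It was at 4.92 and 3.62 CPM in controls, 0.706 and 0.317 CPM in IR, and 2.14 and 6.43 CPM in IR_Pra, so both IR libraries were below all others. Its log2 fold change was -3.07 ± 0.71 (SE), with an adjusted p of 0.0590. ITGB8, the other TGF-beta activating partner of ITGAV, was at 10.6 and 7.19 CPM in controls and 3.16 and 3.45 CPM in IR (log2 -1.43 ± 0.41, adjusted p = 0.0848). ITGB5 was at 75.5 and 94.3 CPM in controls and 98.7 and 118 CPM in IR (log2 0.35 ± 0.24, adjusted p = 0.360), and ITGB3 at 5.46 to 15.3 CPM in all libraries.

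The leukocyte integrins gave no call. ITGB2, the beta subunit of the CD18 integrins, was at 81.1 and 62.6 CPM in controls, 90.7 and 234 CPM in IR, and 70.3 and 95.2 CPM in IR_Pra (IR against control log2 1.18 ± 0.47, adjusted p = 0.162). ITGAM, the alpha subunit of myeloid Mac-1, was at 40.2 and 51.4 CPM in controls, 54.6 and 119 CPM in IR, and 33.6 and 33.4 CPM in IR_Pra (IR against control log2 0.92 ± 0.39, adjusted p = 0.179). Both were higher in IR than in control libraries without overlap, most of all in IR animal 2. In the same comparison, 10 of 12 macrophage markers were called higher, beside 3.39% of all genes, with a median log2 fold change of 2.53. Their summed levels were 769 and 788 CPM in controls and 3692 and 4091 CPM in IR. Per 1000 CPM of those markers, ITGAM was at 52.2 and 65.2 in controls and 14.8 and 29.1 in IR, so it was lower relative to them.

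ITGAE, the subunit by which intraepithelial T cells hold E-cadherin, was at 54.8 and 61.6 CPM in controls, 33.2 and 15.0 CPM in IR, and 44.5 and 43.3 CPM in IR_Pra. The 3 groups did not overlap, but the log2 fold change of -1.27 ± 0.39 in IR had an adjusted p of 0.0972. Its partner ITGB7, shared with the gut-homing subunit ITGA4, was at 82.4 and 69.3 CPM in controls, 77.2 and 69.0 CPM in IR, and 67.9 and 95.8 CPM in IR_Pra, with overlapping groups. T cell markers were called lower for 2 of 11 genes, beside 2.68% of all genes, and had a median log2 fold change of -1.29. ITGAE per 1000 CPM of those markers was at 144 and 249.8 in controls and 178 and 180.1 in IR, within the control range. The part of T cell content in the ITGAE values was not tested.

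ITGAL, the alpha subunit of LFA-1, was at 50.4 and 38.5 CPM in controls but 8.08 and 51.2 CPM in IR (log2 -0.58 ± 0.78, adjusted p = 0.646), and its sign turned without IR animal 1. ITGAD and ITGAX, myeloid subunits, lie 8948 bases apart on chromosome 3, and the deposited table types the ITGAX row as a long non-coding RNA. ITGAD was at 5.19 and 3.49 CPM in controls and 1.26 and 1.14 CPM in IR (log2 -1.86 ± 0.41, adjusted p = 0.0559). ITGAX was at 32.5 and 24.7 CPM in controls and 21.6 and 111 CPM in IR (log2 1.21 ± 0.71, adjusted p = 0.297), and its sign turned without IR animal 2. ITGA4 and ITGA9, which bind VCAM-1 and tenascin among other ligands, were at 6.45 to 33.0 CPM and 20.4 to 42.0 CPM and overlapped between control and IR.

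The 3 genes that are not subunits did not pass. ITGB1BP1, a cytoplasmic protein that binds the tail of ITGB1, was at 28.0 to 41.1 CPM in all 6 libraries. ITGB1BP2, a muscle protein that also binds that tail, was at 1.97 and 6.08 CPM in controls and 12.3 and 13.4 CPM in IR. ITGBL1, a secreted protein with repeats like those of beta subunits, was at 0.208 and 1.05 CPM in controls and 0.947 and 4.40 CPM in IR.

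The genes that work with integrins and laminins were read from 5 lists. Beside the counts below, 3.39% of all genes tested were called higher and 2.68% lower in IR against control, with a median log2 fold change of 0.03. Of 28 basement membrane partners, 5 were higher and 2 lower in IR against control, with a median log2 fold change of 1.02. TINAGL1, a matrix protein that binds integrins and laminins, went from 40.0 ± 8.26 CPM (SD, n = 2) to 178 ± 28.8 CPM, a rise of 2.15 ± 0.27 (adjusted p = 0.0364). SMOC1 rose by 2.01 ± 0.24 (adjusted p = 0.0359) and COL18A1, a collagen of basement membranes, by 2.08 ± 0.34 (adjusted p = 0.0391), while the collagen IV chain COL4A4 fell by 2.29 ± 0.35 (adjusted p = 0.0370). With the length trend removed, COL4A4 was at -1.85 (edgeR adjusted p = 0.0596) and did not pass. Chains of this matrix thus had fold changes in both directions, as the laminin chains did. Neither COL4A4 nor LAMA3 passed with that trend removed.

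Of 26 measured genes in the list of RGD and matricellular ligands and related genes, 4 were higher and 0 lower. Their median log2 fold change was 1.36. EMILIN1, an elastic fibre protein, rose by 2.91 ± 0.53 (adjusted p = 0.0432) and by 2.14 without IR animal 2. CYR61, a matricellular protein that binds several integrins, rose by 3.50 ± 0.66 (adjusted p = 0.0451), and FBLN5 and LRRC32 rose by 1.65 ± 0.27 (adjusted p = 0.0391) and 1.32 ± 0.24 (adjusted p = 0.0431). Without control animal 1, CYR61 was at 4.19 and, like every other gene tested, did not pass. With the length trend removed, CYR61 was at 3.28 (edgeR adjusted p = 0.0530) and did not pass.

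Of 20 measured non-integrin laminin receptors and hemidesmosome genes, 2 were higher and 0 lower, with a median of 0.35. They were BCAM, a receptor for LAMA5, which rose by 2.04 ± 0.35 (adjusted p = 0.0403), and the syndecan SDC2, which rose by 2.33 ± 0.44 (adjusted p = 0.0455) and by 1.68 without IR animal 2. Of 37 focal adhesion genes, 3 were higher and 0 lower, with a median of 0.45. TGFB1I1 rose by 2.21 ± 0.38, TNS2 by 1.59 ± 0.28 and LIMS2 by 1.87 ± 0.35 (adjusted p from 0.0410 to 0.0451). With the length trend removed, SDC2 was at 2.08 (edgeR adjusted p = 0.0753) and LIMS2 at 1.68 (adjusted p = 0.0556), and neither passed. Of 14 leukocyte integrin ligands, 0 were higher and 1 was lower, with a median of 0.27, and F11R, a tight junction protein bound by LFA-1, fell by 2.5 ± 0.32 (adjusted p = 0.0370). No gene of the 5 lists passed in IR_Pra against IR or against control. Smooth muscle markers had a positive fold change for 12 of 12 genes, 1 of them called, with a median of 2.01, in the libraries where these lists were higher, and their part was not tested.

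In IR_Pra against IR, none of the 40 genes passed, beside 0.0055% of all genes tested, which is a single gene. At an unadjusted p under 0.05 edgeR gave 13 of the 40, beside 24.5% of all genes. DESeq2 called 8 of the 40 (20%), beside 11.5% of the 22136 genes it was run on. Those include genes that the filter on low counts removed before edgeR, while all 40 passed that filter. Libraries did not overlap for 23 of 40 genes (57.5%, beside 53.9% of all genes), 10 higher (beside 27.3%) and 13 lower (beside 26.6%) in IR_Pra. The log2 fold change was above 0 for 18 of 40, beside 49.1% of all genes. The smallest adjusted p was that of ITGA2, with a log2 fold change of 2.70 ± 0.42 (adjusted p = 0.0754). ITGB6 was at 3.08 ± 0.71 (adjusted p = 0.0940) and LAMA3 at 1.93 ± 0.53 (adjusted p = 0.111). In the other direction, ITGA5 was at -1.95 ± 0.50 (adjusted p = 0.105), ITGA7 at -1.94 ± 0.48 (adjusted p = 0.10), LAMB2 at -1.65 ± 0.48 (adjusted p = 0.119) and LAMA5 at -1.48 ± 0.35 (adjusted p = 0.0955). ITGAM was at -1.37 ± 0.40 (adjusted p = 0.119) and ITGA8 at -0.82 ± 0.41 (adjusted p = 0.275). Without IR animal 1 the count of genes past the threshold was 16 of 40 (40%), beside 19.7% of all genes. Without IR animal 2 it was 5 of 40 (12.5%), beside 12.4% of all genes, which is the share of the background.

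In IR_Pra against control, none of the 40 genes passed (0% of all genes tested did), 4 had an unadjusted p under 0.05 (3.42% of all genes did) and DESeq2 called 0, beside 0.294% of the genes it was run on. The 4 at an unadjusted p under 0.05 were ITGA7, ITGA8, LAMA2 and LAMC3. Libraries did not overlap for 20 of 40 genes (50%, beside 40.8% of all genes), 12 higher (beside 20.8%) and 8 lower (beside 20%) in IR_Pra. The log2 fold change was above 0 for 28 of 40, beside 50.6% of all genes. For the 6 genes called in IR, log2 fold changes against control were 1.52 ± 0.48 for ITGA7, 1.36 ± 0.42 for ITGA8, 1.01 ± 0.49 for ITGA5, 0.38 ± 0.34 for LAMA5, 0.27 ± 0.40 for ITGA2 and -1.08 ± 0.51 for LAMA3. Adjusted p was 1.0 for each. These values share their control libraries with the IR comparison, and their IR_Pra libraries with the comparison of IR_Pra and IR.

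Both IR_Pra libraries lay between the control and the IR ranges for 5 of the 6 called genes (83.3%), the exception being ITGA2. Of all 1103 genes called in IR, 669 (60.7%) had this order. The summed smooth muscle markers lay between those groups in both IR_Pra libraries as well, and their part in the order was not tested.

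**Figure D5:**
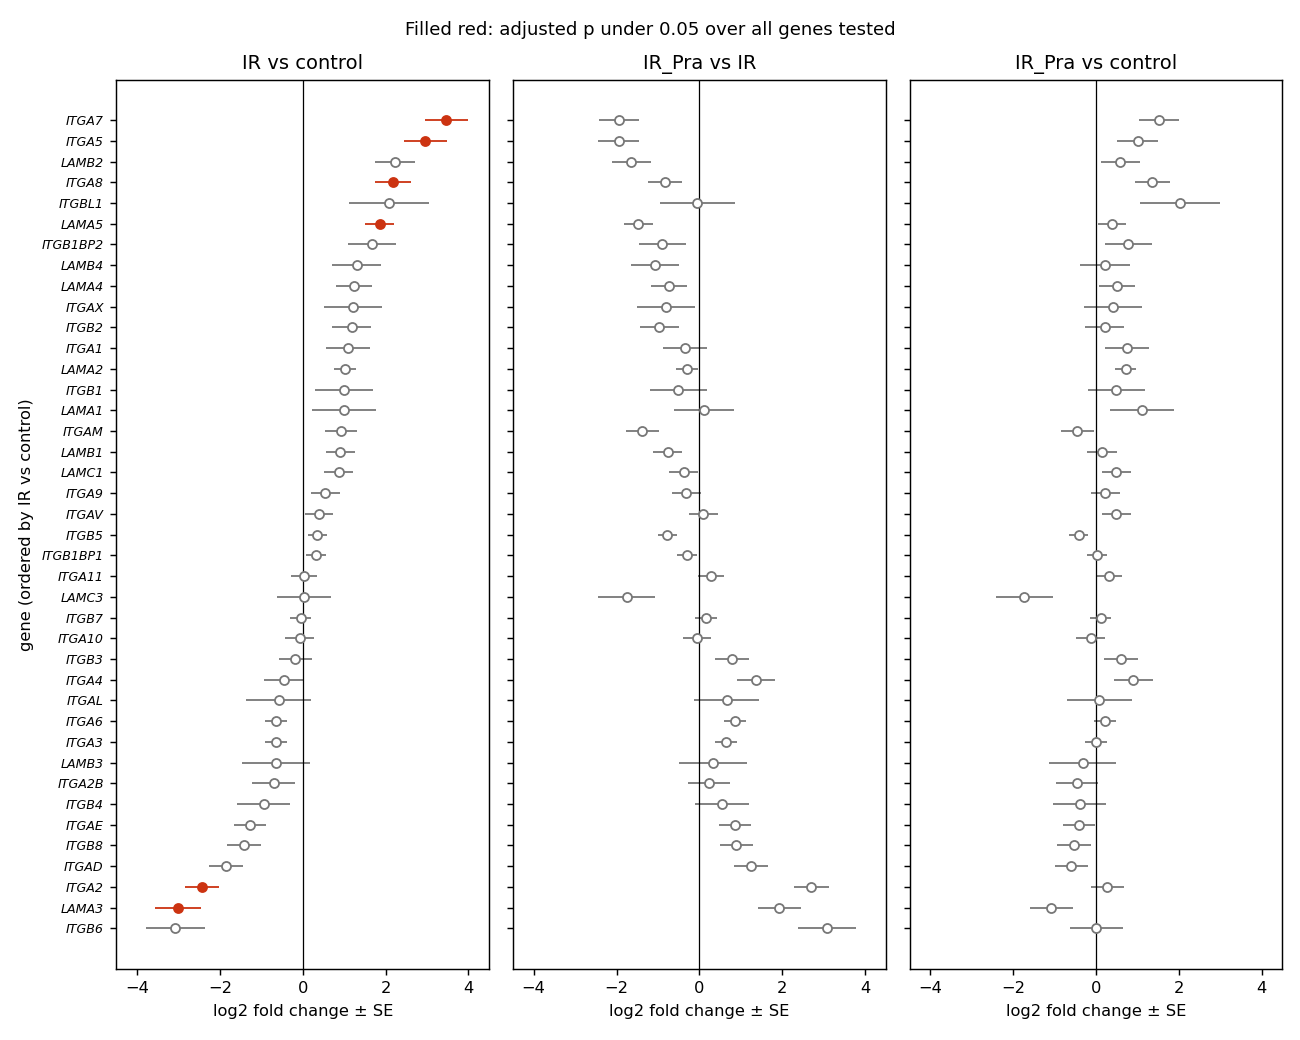
Log2 fold change with its standard error for the 40 genes in the 3 comparisons, ordered by IR against control, with filled points for an adjusted p under 0.05. The 6 filled points are all in the first panel, and ITGA7 and ITGA5 lie lowest and ITGB6 and ITGA2 highest in IR_Pra against IR.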

How the data were processed

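RNA of small intestine from 6 minipigs was sequenced, with 1 library per animal. Per the submitters' processing notes, reads were made with bcl2fastq 2.20.0, trimmed with Trimmomatic, aligned with HISAT2 2.1.0 and assembled with StringTie 2.1.3b. Sscrofa11.1 and GRCh38 are both named as builds in these notes, which do not say what GRCh38 was used for. The deposited table holds a whole-number read count and an FPKM value per gene and library, per the file headers. The step by which the authors made the counts, and its strand setting, are not given in the sources used here. Rows without a gene name (24, holding 0.00906% to 0.0385% of counts) were left out. All 30352 named rows matched RefSeq of Sscrofa11.1 by Entrez ID, which gives the coordinates.

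Counts were tested in R 4.3.3 with edgeR 4.0.16 (limma 3.58.1): filterByExpr by group, TMM scaling, and a quasi-likelihood fit (the newer, non-legacy form) of group means over all 6 libraries, which leaves 3 residual degrees of freedom. P-values are two-sided and adjusted by Benjamini-Hochberg over the 18197 genes tested. CPM uses TMM-scaled library sizes. Standard errors come from the F statistic. FPKM was used for levels compared between genes. The p-values rest on the spread between the 2 animals within each of the 3 groups, pooled over the groups and shared in part across genes. An exact permutation test of 2 against 2 cannot go below 0.333. In simulated data for IR against control with 200 changed genes, 33% of genes changed by 2 on the log2 scale were recovered. Of those changed by 3, 79% were recovered. False calls numbered 4 and 13. The simulation held no length trend and no added difference between the IR animals, so these rates may not carry over to the data.

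The symbol rule takes 41 genes, of which 1 is not reported here and enters no count of these genes; it stayed in the fits. The other 40 are given, with CPM per library for those that passed and for fixed laminin and integrin genes. Of each partner list, up to 4 genes past the threshold with the smallest p are named. The genes, lists and marker sets were chosen with earlier results of these data known. Alternatives were other scalings, filters and tests (DESeq2 1.42.0, limma), a correction for transcript length, a replicate block and leaving out each library.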

Additional observations from a re-analysis of the deposited data

How the results depend on the processing

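All 6 genes called in IR against control kept their direction under each of 19 alternatives. Shares given below for DESeq2 are of the 22136 genes it was run on, without the filter on low counts. The count of 6 (6.06% of all genes called) became 13 with DESeq2 (17.2% of all genes), 4 with the legacy edgeR fit (4.34%, an alternative chosen after seeing the data), 2 with library size alone (2.61%), 2 on log2(FPKM + 0.1) (2.98%), 1 on log2(FPKM + 1) (2.21%), 0 with only the 4 libraries of the comparison and 0 with a replicate block. Leaving out a library gave 0 to 23: 0 without either control or either IR_Pra library, 23 without IR animal 1 (28.3% of all genes) and 9 without IR animal 2 (17.5%). Of these settings, those with a count of 0 called none of all genes tested. The 4 higher and 2 lower genes became 1 higher and 1 lower with library size alone, and 6 higher and 1 lower with the length trend removed. In IR_Pra against IR the count of 0 became 8 with DESeq2 (11.5% of all genes), and 0 to 16 when a library was left out: 16 without IR animal 1 (19.7%) and 5 without IR animal 2 (12.4%). With library size alone the median over all genes there shifted to 0.14. In IR_Pra against control it was 0 under every alternative.

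Signs turned in 5 cases when a library was left out. In IR against control, over the libraries left out, ITGB1 ranged from -0.38 (without IR animal 2) to 1.68, ITGAX from -0.41 (without IR animal 2) to 1.96, LAMB3 from -2.71 to 0.16 (without IR animal 2), and ITGAL from -2.46 to 0.20 (without IR animal 1). In IR_Pra against control, ITGA2 ranged from -0.21 (without IR_Pra animal 1) to 0.61. With the replicate block, adjusted p of the 6 genes was 0.0792 to 0.0918. Replicate numbers mark separate animals, and deviations of same-numbered libraries correlated at 0.08, -0.11 and -0.09. With a single difference per group, these values cannot tell whether same-numbered animals shared anything beyond the number. With 2 animals per group and a common coefficient of variation of 0.431, differences of 2 on the log2 scale were often missed in simulated data.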
